A study of Mus musculus with 6 samples.

Results

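The genes of the AMPA receptor, the glutamate receptor that carries fast excitatory transmission, were compared between astrocytes of the cerebellum and of the neocortex. The group held 10 genes. These were the pore-forming subunit genes Gria1, Gria2, Gria3 and Gria4, 5 genes of transmembrane AMPA receptor regulatory proteins (TARPs; Cacng2, Cacng4, Cacng5, Cacng7 and Cacng8) and the cornichon gene Cnih2. They were found by gene symbol in the platform annotation, and all 10 had at least 1 probe set, with 22 probe sets among the 45037 analysed and 10 genes among the 18193 named on the array. RNA of mouse astrocytes was measured on 6 single-colour arrays, 3 of cerebellar and 3 of neocortical astrocytes. Per the labels, total RNA was hybridised as biotinylated amplified RNA. The ICR strain is named for the neocortical arrays alone, so if the cerebellar cells came from another strain, strain and region cannot be told apart. The labels state no age, isolation method or treatment, and they do not say whether arrays of a group came from separate animals. The p-values therefore cover the spread among these arrays only, and part of it may be technical.

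AMPA receptors are tetramers of the proteins encoded by the Gria genes, and the subunit make-up sets what the channel lets through. The Gria2 product is edited at the RNA level in its pore, and receptors that contain the edited subunit pass hardly any calcium, whereas receptors without it are permeable to calcium. TARPs and cornichons are membrane proteins that travel with the receptor, and several of them, though not all, carry it to the surface and slow its closing. Among astrocytes, Bergmann glia of the cerebellar cortex are known for calcium-permeable AMPA receptors at the synapses they wrap.

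Values are quantile-normalized signal in arbitrary units, and 1 probe set's level cannot be set against another's. Signal under 62.2 was raised to that floor before log2 was taken, and the dimmest 40% of probe sets were not tested. Differences are cerebellar minus neocortical log2 signal from limma's moderated fit, and adjusted p-values are by Benjamini-Hochberg over all 27022 probe sets tested, with a threshold of 0.05. Bacterial control probe sets read up to 269.2 in the deposited values, and signal below that is called dim here. Across the array 1319 probe sets were higher and 1545 lower in cerebellar astrocytes, which is 4.88% and 5.72% of those tested and 10.6% together, with a median log2 difference of 0.00896. With arrays scaled to a common median the split was 819 higher and 2105 lower. Without neocortical replicate 1, 2 or 3 the number called was 1326, 1385 and 1213. The groups did not overlap for 32.2% of tested probe sets. Of the 22 member probe sets, 15 were bright enough to be tested, of which 4 were higher, 3 were lower and 8 did not pass, and the groups did not overlap for 10. By each gene's brightest probe set, 9 of the 10 genes were tested. Gria1, Gria4 and Cacng5 were higher in cerebellar astrocytes, Gria2 was lower and 5 did not pass, against 12.7% called among all 12616 genes tested, 5.3% higher and 7.36% lower. The members were chosen with earlier results of these data known, so these counts are a description. RNA integrity was read from the Gapdh control probe sets, whose 3′ over 5′ signal was 0.996 ± 0.0795 on cerebellar and 0.873 ± 0.00922 on neocortical arrays (SD, n = 3 each, two-sided exact permutation p = 0.1, the smallest that 3 arrays against 3 allow). The part of RNA integrity in the differences below was not tested.

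**Figure D1:**
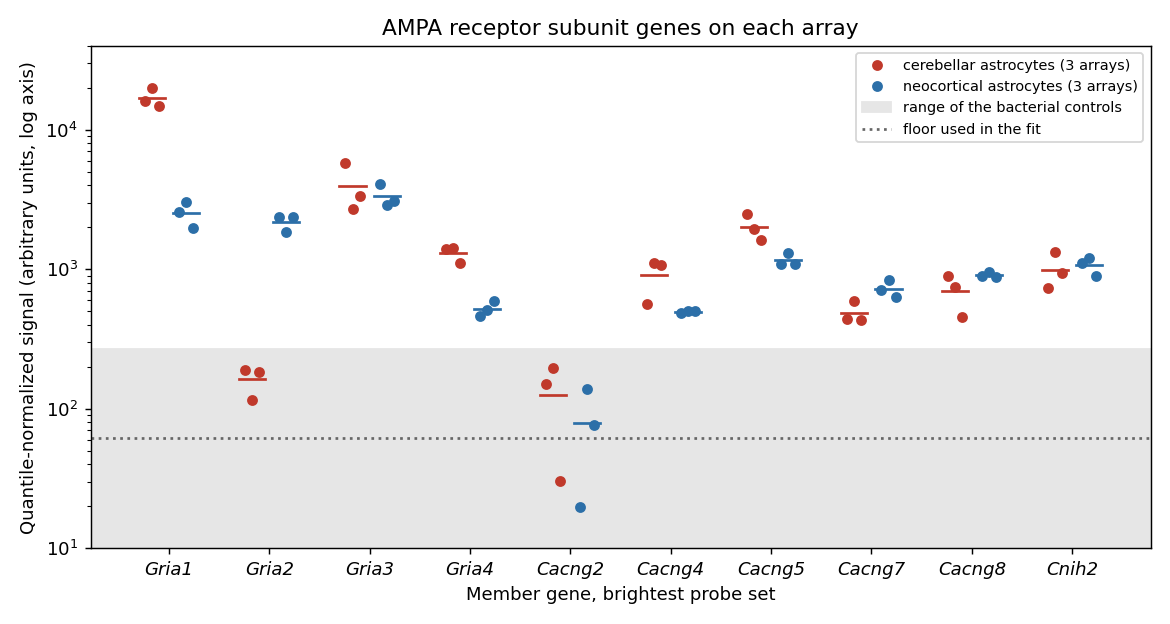
Quantile-normalized signal (arbitrary units, log axis) of the brightest probe set of each member gene on every array, red for cerebellar and blue for neocortical astrocytes, with bars at the group means (n = 3). The grey band is the range of the bacterial controls in the deposited values and the dotted line the floor of 62.2. The 3 cerebellar values of Gria1 (14737 to 20033) lie above all neocortical ones, and those of Gria2 (115 to 191) lie in the band.

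The pore-forming subunits moved in opposite directions. Gria1, which encodes GluA1, read 16047, 20033 and 14737 on cerebellar arrays 1 to 3 and 2567, 3062 and 1986 on neocortical arrays 1 to 3. The lowest cerebellar array was thus far above the highest neocortical one. The log2 difference was 2.75 ± 0.172 (SE, 95% interval 2.36 to 3.14, limma adjusted p = 5.38e-05), or 6.72-fold, and Gria1 ranked 18 among 12616 genes for a difference towards the cerebellum. The gene's other probe set (1448972_at) gave the same picture, with 9859, 11996 and 10744 on cerebellar and 1776, 1549.8 and 1039.5 on neocortical arrays. Its difference was 7.63-fold (95% interval 5.67 to 10.3, limma adjusted p = 6.54e-05). As these are bulk samples, more cells with the transcript and more transcript per cell cannot be told apart here or below.

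Gria2, which encodes the subunit that limits calcium entry, went the other way on all 3 of its probe sets. The brightest (1421970_a_at) read 191, 115 and 185 on cerebellar arrays and 2356, 1861 and 2358 on neocortical arrays. All cerebellar values lay in the dim range and all neocortical values were well above it. The difference of -3.77 ± 0.248 (SE, 95% interval -4.33 to -3.21, limma adjusted p = 7.03e-05) is 13.6-fold, a size that is uncertain because the lower group was dim. Gria2 ranked 9 among 12616 genes for a difference towards the neocortex.

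The other probe sets of Gria2 differed in size from it. On 1434146_at every cerebellar array was at the floor, with neocortical values of 694, 895 and 698. The estimated difference was 12.2-fold (95% interval 7.55 to 19.6, limma adjusted p = 0.000244), a size that depends on the floor. On 1453098_at the cerebellar values were 214, 279.8 and 303 and the neocortical ones 784, 684 and 712. This difference was 2.76-fold (95% interval 1.92 to 3.96, limma adjusted p = 0.00516), and it stands for the gene when probe sets with a suffix are left out. The 3 probe sets thus shared a direction with no overlap between groups, and their folds differed.

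Gria3, which encodes GluA3, showed no call on either probe set. The brighter one read 5832, 2700.2 and 3356 on cerebellar and 4095, 2885 and 3095 on neocortical arrays. Cerebellar replicate 1 was the highest array and replicate 2 the lowest of all 6, so the groups overlapped. The difference was 0.18 with a 95% interval of -0.41 to 0.77 (limma adjusted p = 0.719), and it was -0.14 without cerebellar replicate 1. The dimmer probe set (1420563_at) read 1279 to 2007 on cerebellar and 936 to 1263 on neocortical arrays, which did not overlap, but it did not pass (limma adjusted p = 0.197).

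Gria4, which encodes GluA4, was higher in cerebellar astrocytes. Its brightest probe set (1435722_at) read 1397, 1416 and 1116 on cerebellar and 460.3, 511 and 597 on neocortical arrays, without overlap. The difference was 1.32 ± 0.185 (SE, 95% interval 0.91 to 1.74, limma adjusted p = 0.00279), or 2.5-fold. The gene's other probe sets were too dim to test. One (1421351_at) read 327, 223 and 175 on cerebellar and 133, 129 and 105 on neocortical arrays. The other (1440891_at) read 133 to 149 and 86.3 to 94.9. In both, every cerebellar array was above every neocortical one.

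**Figure D2:**
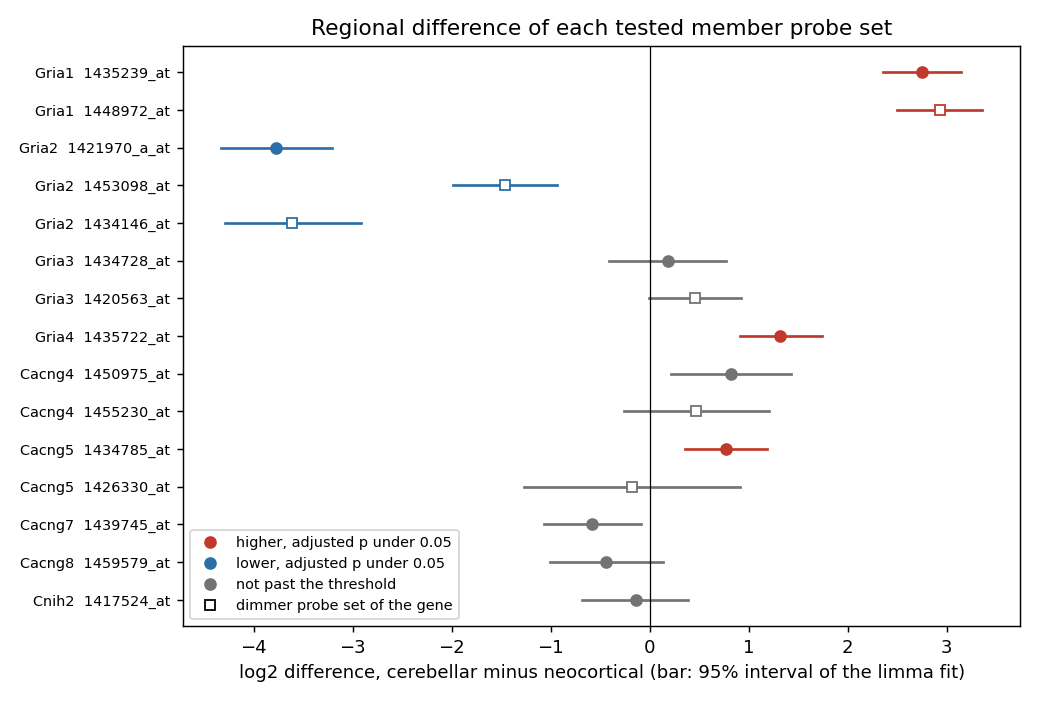
Log2 difference, cerebellar minus neocortical, of the 15 tested member probe sets (points, filled for the gene's brightest probe set), with 95% intervals of the limma fit from 3 arrays per group. Red and blue mark probe sets higher and lower at an adjusted p under 0.05. Both probe sets of Gria1 lie to the right (2.75 and 2.93) and the 3 of Gria2 to the left (-3.77, -3.61 and -1.46).

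The unequal change of Gria1 and Gria2 was also followed within each array, as log2 Gria1 minus log2 Gria2 of the brightest probe sets. It was 6.39, 7.44 and 6.32 on cerebellar and 0.12, 0.72 and -0.25 on neocortical arrays, so the groups stood far apart. The means were 6.72 ± 0.629 and 0.20 ± 0.487 (SD, n = 3 each), a difference of 6.52, whose size is uncertain because the cerebellar Gria2 values were dim. With the other probe set of Gria1 against the same Gria2 probe set it was 6.70. The pairings with 1453098_at gave 4.21 and 4.40. Those with 1434146_at, at the floor on every cerebellar array, gave 6.35 and 6.54, sizes that depend on the floor. These values compare regions and say nothing of the absolute ratio of the transcripts, because each probe set has its own brightness. Both genes entered with their regional differences known, so the size is a description of that pair. A two-sided exact permutation test gave p = 0.1 for the brightest probe sets, the smallest that 3 arrays against 3 allow. For a pair chosen in this way it adds no support.

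Of the TARP genes, Cacng5 was the member past the threshold. Cacng5 encodes a TARP that has been described in Bergmann glia. Its brighter probe set (1434785_at) read 2491, 1947 and 1611 on cerebellar and 1093, 1319 and 1094 on neocortical arrays, without overlap. The difference was 0.77 ± 0.183 (SE, 95% interval 0.36 to 1.18, limma adjusted p = 0.03), or 1.7-fold. The call was weak. The adjusted p was 0.107, 0.0588 and 0.113 without neocortical replicate 1, 2 or 3, and 0.0589 and 0.0636 without cerebellar replicate 1 or 2. It was also lost when arrays were scaled to a common median (adjusted p = 0.0714), with its probe sets averaged (difference 0.29, adjusted p = 0.578), and in 9 of 16 alternatives in all. The dimmer probe set of Cacng5 (1426330_at) read 105 to 379 on cerebellar and 208 to 331 on neocortical arrays, and its difference was -0.18 (95% interval -1.27 to 0.91, limma adjusted p = 0.853).

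The sequences before annotated starts of Gria4 and Cacng5, both higher in cerebellar astrocytes, are shown. Whether these astrocytes use those starts was not tested. RefSeq promoter windows on GRCm38.p6 matched 7 of the 10 genes, and Gria1, Gria3 and Cacng4 had none. The sequences below are the 250 bases before the outermost annotated start of each gene, both on the minus strand, at chr9:4796235-4796484 for Gria4 and chr11:107915056-107915305 for Cacng5. Capitals mark matches on either strand to the CCAAT box (CCAAT) and the GC box (GGGCGG).
Gria4: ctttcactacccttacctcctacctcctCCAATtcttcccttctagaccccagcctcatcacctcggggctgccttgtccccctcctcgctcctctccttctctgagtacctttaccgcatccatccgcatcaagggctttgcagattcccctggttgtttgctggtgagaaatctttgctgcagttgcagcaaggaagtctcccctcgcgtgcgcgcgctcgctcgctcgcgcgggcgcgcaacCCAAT
Cacng5: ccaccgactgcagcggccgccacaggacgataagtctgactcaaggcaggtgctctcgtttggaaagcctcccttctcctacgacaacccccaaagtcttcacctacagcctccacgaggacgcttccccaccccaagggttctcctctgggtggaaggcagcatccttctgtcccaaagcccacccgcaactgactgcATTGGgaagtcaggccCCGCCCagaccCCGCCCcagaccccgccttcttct
The Gria4 window held 2 CCAAT matches and no GC box, and this Cacng5 window held 1 CCAAT match and 2 GC boxes that do not overlap it. Neither held a TATA box (TATAAA). The window before a second annotated start, inside the Cacng5 gene, held none of the 3 motifs. Their GC content was 58.8% for Gria4 and 62% for Cacng5, against a median of 52.4% over all windows. Of all 32851 windows of this length, 33.8% held a CCAAT match, 32.7% a GC box and 12.4% a TATA box. Matches of this kind describe the letters and do not show that a factor binds there.

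Cacng4, which encodes a TARP of the same class as stargazin, read 568, 1105 and 1069 on cerebellar and 483, 504 and 499.9 on neocortical arrays (1450975_at). The neocortical arrays lay close together, and cerebellar replicate 1 lay just above them, apart from the other two. The difference of 0.82 (95% interval 0.21 to 1.43) did not pass (limma adjusted p = 0.0881). Without cerebellar replicate 1 it was 1.13 and passed (adjusted p = 0.00839). The second probe set (1455230_at) read 479 to 879 and 329.5 to 691, overlapped between groups and did not pass (adjusted p = 0.398).

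Cacng7 and Cacng8 had lower means in cerebellar astrocytes, without a call. Cacng7 read 439, 596 and 434 on cerebellar and 712, 838 and 631 on neocortical arrays (1439745_at). The groups did not overlap, and the difference was -0.58 (95% interval -1.07 to -0.084, limma adjusted p = 0.131). Its other probe set, at 86.3 to 201 over all arrays, was too dim to test. Cacng8, a TARP gene of forebrain neurons, read 902, 746 and 457 on cerebellar and 895, 960.1 and 887 on neocortical arrays (1459579_at), and cerebellar replicate 3 stood low. Its difference was -0.44 (95% interval -1.01 to 0.13, limma adjusted p = 0.31). A second, untested probe set of Cacng8 read 8.65 to 276 on cerebellar and 73.8 to 117 on neocortical arrays, with cerebellar replicate 3 at the floor and the other two above every neocortical array.

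Cacng2, which encodes stargazin, the TARP that brings AMPA receptors to the surface of cerebellar granule cells, was dim on all 3 of its probe sets and could not be tested. Its brightest probe set read 150.4, 197 and 30.4 on cerebellar and 19.7, 139 and 76.9 on neocortical arrays. No array of the gene exceeded the range of the bacterial controls, and whether the regions differ was not tested. Cnih2, whose product slows AMPA receptor closing, read 729, 1323 and 934 on cerebellar and 1116, 1214 and 897 on neocortical arrays. The groups overlapped, and the difference was -0.14 (95% interval -0.68 to 0.39, limma adjusted p = 0.746). Without cerebellar replicate 1 it was 0.058, and neither sign passed.

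Genes that work with the receptor were taken from 7 lists of auxiliary, assembly, scaffold, editing, extracellular and signalling proteins, 71 genes in all. Of these, 65 had a probe set with 1 symbol and 49 were tested, with 5 higher, 6 lower and 38 not past the threshold. That is 22.4% called, against 12.7% of all genes, with a median log2 difference of -0.082 against -0.0148. The lists were chosen with earlier results of these data known, so this share is a description and adds no support. Shisa9, Porcn, Arc, Sparcl1 and Camk2a kept their call under every alternative in which they were tested.

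Auxiliary and complex proteins outside the TARP and cornichon members divided by region. Of 8 tested, 2 were higher, 2 were lower and 4 did not pass. Shisa9, which encodes the auxiliary subunit CKAMP44, was higher (4154 ± 380.0 against 2220.2 ± 124, SD, n = 3 each, limma adjusted p = 0.00193), and its relative Shisa6 was lower (551 ± 239 against 1669.8 ± 106, adjusted p = 0.00674). Nrn1, encoding the membrane-anchored protein neuritin, was lower, with a difference of -2.69 ± 0.442 (SE, limma adjusted p = 0.00637). Shisa6 and Nrn1 lost the call when no probe set was filtered (adjusted p = 0.0777 and 0.0899). Syndig1, whose product binds AMPA receptors, was higher by 2.06 ± 0.538 (SE, limma adjusted p = 0.0427), a size that is uncertain because its neocortical mean of 248 was dim. Its call was lost without neocortical replicate 2 or 3 (adjusted p = 0.143 for each) and without cerebellar replicate 1 or 3 (0.0968 and 0.113). Syndig1 also lost it when no probe set was filtered (0.213) and with no variance trend in the fit (0.102). The remaining TARP gene Cacng3 and the cornichon gene Cnih3 were dim on every array, and Gsg1l was at the floor on every array.

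Of 6 genes for assembly in the endoplasmic reticulum, Porcn was higher, at 3219.7 ± 534 against 1538 ± 201 (SD, n = 3 each, limma adjusted p = 0.00444), and 5 did not pass. Porcn encodes the acyltransferase of Wnt proteins, which has also been found in AMPA receptor complexes. Cpt1c and Sacm1l, whose products bind newly made receptors, had differences of -0.20 and -0.22 (adjusted p = 0.185 and 0.169). Abhd6, named after its value was seen, had a difference of -0.76 that did not pass (adjusted p = 0.0504) but passed with the replicate number as a block (adjusted p = 0.0316). Of 15 tested scaffold and trafficking genes, Arc alone passed, at 894 ± 227 against 221 ± 39.4 (SD, n = 3 each, difference 2.00, limma adjusted p = 0.00215). Arc is an activity-induced gene whose product draws AMPA receptors into the cell. The neocortical mean of Arc was dim, so its size is uncertain. Dlg1, a membrane scaffold, read 7418 ± 256 and 7445 ± 165 (adjusted p = 0.977). The motor gene Myo6 had a difference of -0.40 (adjusted p = 0.162), which passed with the block (adjusted p = 0.0485).

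The editing enzymes gave no call. Adar, with a difference of 0.14 (adjusted p = 0.486), and Wwp2, which encodes a ligase that removes the editing enzyme ADAR2, with 0.16 (adjusted p = 0.57), were the list's only tested genes. Adarb1, the gene of ADAR2 that edits the Gria2 transcript, was too dim to test, with 179 ± 97.2 on cerebellar and 102 ± 72.3 on neocortical arrays (SD, n = 3 each). Expression arrays do not read editing itself.

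Of 6 tested genes for secreted and matrix proteins that act at synapses, not all of them on AMPA receptors, 1 was higher and 1 lower. Sparcl1, the gene of hevin, read 43929 ± 5841 against 13637 ± 2250.4 (SD, n = 3 each, limma adjusted p = 0.000174). Gpc4, encoding a glypican by which astrocytes recruit AMPA receptors to neurons, was lower, at 22502 ± 2739 against 37166 ± 6879.7 (adjusted p = 0.0142). It was not called without neocortical replicate 3 (adjusted p = 0.0594), with no filter (0.116) or with no variance trend (0.0739). The glypican gene Gpc6 of the same list had a difference of 0.007 and did not pass (limma adjusted p = 0.988). Of 12 tested kinases and phosphatases, 3 were lower and none was higher, all 3 from the calcium/calmodulin kinase family that phosphorylates the receptor. Camk2a read 308 ± 81 on cerebellar and 1714 ± 766 on neocortical arrays (SD, n = 3 each, difference -2.42, limma adjusted p = 0.00204), and 2 of its 4 tested probe sets passed. Camk2d had a difference of -0.70 (adjusted p = 0.018), which did not pass without neocortical replicate 1 or 2 (0.0651 and 0.0744). Nor did Camk2d pass with no filter (0.0702) or with no variance trend (0.051). Of its 7 tested probe sets 3 passed, and with probe sets averaged the difference was -0.45 (adjusted p = 0.0605). Camk2g had -0.34 (adjusted p = 0.0485) and did not pass with the replicate block (0.059) or without any 1 of the arrays (0.0527 to 0.159). Nor did Camk2g pass with its probe sets averaged (0.121) or with no variance trend (0.128). The calcium channel gamma genes Cacng1 and Cacng6, which are not TARPs, were dim on every array.

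**Figure D3:**
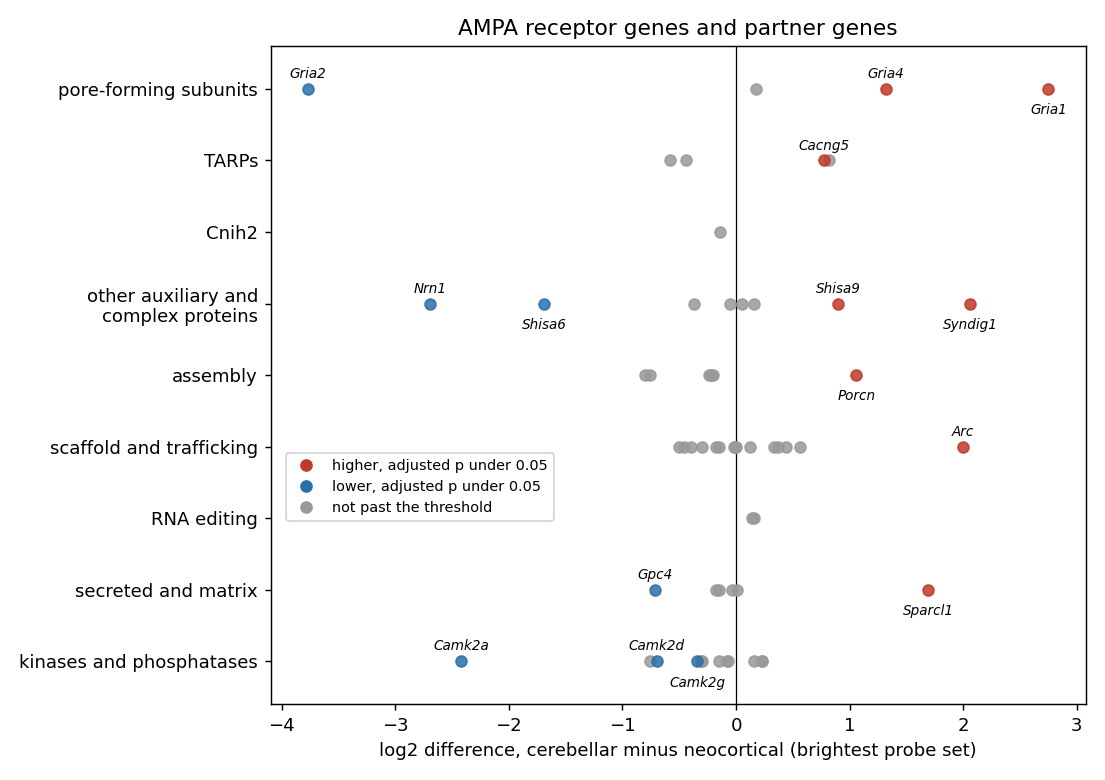
Log2 difference, cerebellar minus neocortical, of each tested gene by its brightest probe set (1 point per gene), with the members in the top 3 rows and partner genes grouped by role below. Named red points are higher and named blue points lower at an adjusted p under 0.05. Gria2 (-3.77) and Gria1 (2.75) are the outermost points of the plot.

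Other brain cells also carry AMPA receptors, so their markers were read on the same arrays. All 11 astrocyte markers measured rose above the dim range on at least 1 array, with sums of 161120.4 to 233773 on cerebellar and 228479.9 to 277202 on neocortical arrays. Aqp4 was higher, and Ndrg2, Glul, Slc1a3 and Aldoc were lower. Aqp4 did not pass without neocortical replicate 1 or 3 or cerebellar replicate 2 or 3 (limma adjusted p = 0.102 to 0.137), nor Aldoc without any 1 neocortical array or cerebellar replicate 3 (0.0586 to 0.0722). With no filter none of these called astrocyte markers passed (0.0717 to 0.213). Aqp4, Aldoc and Glul did not pass with no variance trend (0.134, 0.0803 and 0.0507), nor Aqp4 with arrays scaled to a common median (0.1). Of 6 tested probe sets of Slc1a3, 1 passed, and its difference went from -0.80 to -0.25 with probe sets averaged per gene (adjusted p = 0.507). Of 17 neuron markers 10 were dim on every array, among them Snap25, Tubb3, Slc17a7 and the granule cell gene Gabra6. The summed neuron signal was 9997 to 22586 on cerebellar and 11566 to 15721 on neocortical arrays, 67.1% of it from Stmn2. Gad1 (difference -1.83, against a dim cerebellar mean of 157) and Syt1 (-0.67) were lower and Eno2 (0.61) was higher. Syt1 did not pass without any 1 neocortical array (limma adjusted p = 0.0742 to 0.0904), nor Gad1 without replicate 2 or 3 of either region (0.0535 to 0.0769), nor Eno2 without any 1 neocortical array or cerebellar replicate 1 or 3 (0.0722 to 0.121). With no filter none of these called neuron markers passed (0.0536 to 0.127). Gad1 and Eno2 did not pass with no variance trend (0.0514 and 0.0586), nor Eno2 with arrays scaled to a common median (0.0784).

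Of 10 oligodendrocyte lineage markers measured, Mog was at the floor on every array and 3 in all were dim on every array. Their sums were 54286 to 83713 on cerebellar and 74204 to 86026 on neocortical arrays, 66.2% of it from Cnp, and the log2 difference of the sums was -0.33 with Cnp and -1.48 without it. Olig2 and Olig1, transcription factor genes of that lineage, were lower in cerebellar samples (differences -2.58 and -1.74, limma adjusted p = 0.000499 and 0.00129), and Mbp was higher (2.65, adjusted p = 0.0134). The neocortical mean of Mbp was dim (185, with 1 array at the floor), and its difference was 1.65 with probe sets averaged. Mbp did not pass with no filter (limma adjusted p = 0.12). The precursor markers Pdgfra, Cspg4 and Sox10 overlapped between regions and did not pass. Gria2 was lower in cerebellar samples, as were Olig2, Olig1, Gad1 and Syt1 and any other gene called lower. Of the same marker lists, Mbp and Eno2 were higher there. The part of these cells in the difference of Gria2 was not tested.

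Among the Bergmann glia markers Gdf10 (difference 2.65, limma adjusted p = 0.000479) and Wif1 (2.06, adjusted p = 0.0107) were higher in cerebellar samples. Wif1 did not pass without neocortical replicate 2 (adjusted p = 0.0513) or with no filter (0.11). Septin4, Fabp7 and Ptprz1 were lower, 3 did not pass and Dao and Etv4 were dim on every array. With no filter Ptprz1 did not pass (limma adjusted p = 0.055). Sums of this list were 226964 to 237149.8 on cerebellar and 273139.9 to 290216 on neocortical arrays, and 56.5% came from Vim, which took the highest normalized value, 145520.0, on every array. The log2 difference of the sums was -0.30 with Vim and -0.69 without it. Microglia markers, 0 of 7 past the threshold, summed to 5505 to 30554 on cerebellar and 9437 to 27256 on neocortical arrays. Fibroblast markers, 0 of 6 past it, summed to 55334, 123627 and 213698 on cerebellar arrays 1 to 3 and 55526 to 92941 on neocortical arrays. The part of these cells in the members' differences was not tested. Of the endothelial markers Kdr was lower and Pecam1 was at the floor on every array, with sums of 823 to 2258 and 1856 to 2632.

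The genes most like Gria1 and Gria2 over the 6 arrays were named by Pearson correlation of log2 signal among the other 12615 genes tested. With 3 arrays per region, this measure is set mostly by the regional difference and by the order of so few arrays, and no test was made of it. For Gria1 they were Oip5os1, Adamts6, Prelid3b, Ttc3 and Pds5b, with r from 0.9935 to 0.9970. Of these, Adamts6, a secreted protease gene, had a log2 difference of 1.75, and the others had differences of 0.31 to 0.48, of which those of Prelid3b and Pds5b did not pass (limma adjusted p = 0.0705 and 0.0831). For Gria2 they were Syne2, Col11a1, Mgll, Casq1 and Syp, with r from 0.9972 to 0.9992 and log2 differences of -2.67 to -1.02. Mgll encodes the lipase that breaks down an endocannabinoid, Casq1 a calcium-binding protein of the calcium store and Syp the synaptic vesicle protein synaptophysin, whose means were dim in both regions (122 and 259, limma adjusted p = 0.0698).

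**Figure D4:**
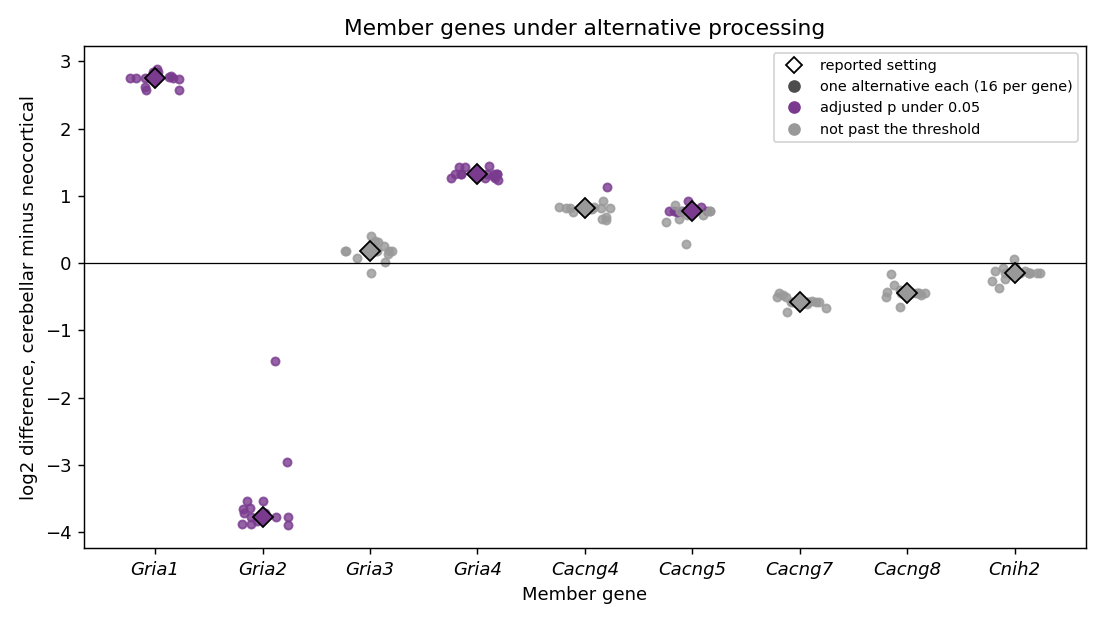
Log2 difference, cerebellar minus neocortical, of the 9 tested member genes under the reported setting (diamonds) and 16 alternatives each (points), purple where the adjusted p was under 0.05. Gria1, Gria2 and Gria4 keep their side of 0 and their call throughout, Cacng5 loses it in 9 alternatives and Cacng4 gains it in 1.

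Across the 16 alternatives, Gria1 ranged from 2.57 to 2.89 (highest adjusted p = 0.0135), Gria4 from 1.24 to 1.44 (0.027) and Gria2 from -3.90 to -1.46 (0.0123), by limma's fit. The members of the group thus fall into 3 kinds in these samples. Gria1, Gria2 and Gria4 differed between regions under every setting run, Cacng5 and Cacng4 changed side of the threshold with the setting, and Gria3, Cacng7, Cacng8 and Cnih2 did not pass under any. Cacng2 was not tested.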

How the data were processed

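The authors deposited linear intensity values, 1 for each of 45101 probe sets on every array. How they were summarised is not given in the sources used here. Their 2% trimmed mean was 1500.0 on every array, and the medians ran from 285 to 361. The 64 control probe sets were left out. The others were quantile normalized, raised to a floor at the 20th percentile of all values (62.2) and put on the log2 scale. Probe sets below the 40th percentile of mean log2 signal were dropped, which left 27022. These were fitted by region in limma 3.58.1 (R 4.3.3) with an eBayes variance trend, and two-sided tests were used. The fit was also run on simulated data with independent noise for every probe set and array. Such data hold no pairing of arrays, and no result is drawn from them. Exact permutation tests used scipy 1.17.1. Array number, 3 per group, limits the precision.

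The platform annotation gave 1 symbol for 34945 probe sets, several for 932 and none for 9160, and Entrez IDs linked 34741 of the single-symbol ones to RefSeq names (GRCm38.p6). The probe set with the highest mean stood for a gene. The members, lists and tests were chosen with earlier results of these data known. All members are named, up to 4 genes past the threshold per direction and list, the 2 brightest where fewer than 2 passed, and the 5 genes most like Gria1 and Gria2. Same-numbered arrays of the groups deviated together from their group means (correlations 0.18, 0.188 and 0.101), against -0.182 to 0.0225 for arrays of unlike number. The numbers may thus pair the arrays. The reported fit holds no block for them, so its p-values leave such a pairing out, and the replicate block is an alternative. Other alternatives were the scaling, floor, filter, variance trend, probe set choice and leaving out each array.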

Additional observations from a re-analysis of the deposited data

How the results depend on the processing

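With the replicate number as a block, the same 7 member probe sets passed and 3342 probe sets over the array. It changed the calls of Camk2g, Abhd6 and Myo6, given above, and the markers Gfap, Slc1a2 and Col1a1 then passed (limma adjusted p = 0.00406, 0.0406 and 0.00597); it changed no other call among members, partner genes and markers. The number of probe sets called over the array fell from 2864 to 1281 with no filter and 1590 with no variance trend, and ran from 1213 to 2775 without any 1 array. The number of partner genes called was 7 with no filter, against 11. Member genes called numbered 3 or 4 and member probe sets 5 to 7 under every alternative run. The reversals were of uncalled genes: Gria3 (-0.14 to 0.41) and Cnih2 (-0.37 to 0.058) over the left-out arrays, Adar (-0.038) with arrays scaled to a common median, and Dlg1 (0.37 with probe sets averaged per gene, -0.034 to 0.012 over the left-out arrays, among them 0.0078 and 0.0049). Leaving probe sets with a suffix out moved Gria2 to -1.46, because another probe set then stood for it. The cause of the other changes was not tested. The marker sums and genes were rerun as alternatives chosen after the data were seen, and the Bergmann glia sum went from -0.30 to -0.13 as deposited. Signal near the bacterial controls limits Cacng2, the cerebellar level of Gria2 and Adarb1.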

Other observations

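In the RefSeq gene table of GRCm38.p6, Cacng4 and Cacng5 are neighbouring protein-coding genes, followed by Prkca, and Cacng7 and Cacng8 are also neighbours. The brightest probe sets of the first pair had log2 differences of 0.82 and 0.77, cerebellar minus neocortical, with Cacng5 past the threshold (limma adjusted p = 0.03) and Cacng4 not (0.0881). Those of the second pair had -0.58 and -0.44, and neither passed (0.131 and 0.31). Prkca, a kinase gene next to Cacng5, had a difference of -0.30 on its brightest probe set (0.162). Of its 3 tested probe sets, 1 passed, also lower. Whether these pairs differ together was not tested.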
